A study of Mus musculus with 6 samples.

Results

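Neural lineage transcription factors were followed on day 4 of induction in primordial germ cell-like cells (PGCLCs) of the mouse, with and without deletion of Ezh2. The set was given by name as 39 genes in 6 roles: 7 proneural bHLH genes, 3 Olig bHLH genes, 6 Pax genes, 11 LIM homeobox genes, 4 Nkx homeobox genes and 8 regional factors. Of the 39, 38 matched a gene ID among the 37991 of the count table. Lhx8 was not matched, so its level was not read, only its promoter. PGCLCs stand for the earliest germ line precursors and are grown as floating aggregates from embryonic stem (ES) cells that have passed 2 days as epiblast-like cells, with BMP2, SCF, LIF and EGF in the medium. All 6 libraries came from C57BL/6 ES cells with the genotype Ezh2f/f and CreERT2, a Cre recombinase that works only while bound to a tamoxifen compound. The 3 Ctrl libraries came from aggregates given ethanol. The 3 Ezh2 KO libraries, labelled Ezh2-/-, CreERT2, came from aggregates given 4-hydroxytamoxifen in ethanol, so the compound and the deletion cannot be told apart. The sources used here give neither the promoter that drives CreERT2, nor the number of clones, nor the sorting gate. The labels do not say whether each replicate was an induction of its own, so the spread behind each p is that between these libraries, which may be technical.

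Polycomb repressive complex 2 (PRC2) marks CpG-rich promoters with H3K27me3, and Ezh2 is its principal enzyme. In stem cells the promoters of many developmental regulators, neural ones among them, carry H3K27me3 together with the active mark H3K4me3, a state called bivalent, and the genes stay nearly silent. Proneural bHLH factors drive progenitors into neuronal differentiation, while Pax, LIM, Nkx and the other homeobox factors assign regional and subtype identity in the neural tube and brain. The comparison asks how the transcript levels of such genes stand in germ cell precursors when Ezh2 has been targeted.

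Most member starts were rich in CpG, though not all. The set was described as genes with typical bivalent promoters, which are CpG-rich, so this is a description of the choice and not independent of it. RefSeq promoters (build GRCm38.p6) were found for 35 of the 39 members, 43 starts in all, and the 250 bases before each start were read. A CpG ratio (observed over expected) above 0.6 with GC content above 50% was met by 26 of 43 member promoters (60.5%) and by 30.8% of all 32851 promoters. The median CpG ratio was 0.71 for members and 0.37 for all promoters, and starts of Neurod4 (0.12), Lhx9 (0.22), Olig3 (0.24), Lhx8 (0.31) and Pax8 (0.31) lay below the latter. The motif TATAAA, searched on both strands, was found in 4 of the 43 (9.30%) and in 12.4% of all promoters. The E-box CANNTG, the core that bHLH factors bind and which reads alike on both strands, was found in 19 (44.2%) against 66.2% of all. These are counts of letters and say nothing about binding or marks in these cells.

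The promoters of 6 members are shown with each CpG in capitals, 5′ to 3′ on the gene's strand. Neurog1, Lhx2 and Lmx1b are shown because they had the lowest Ezh2 KO levels relative to Ctrl among the 13 tested members, Gbx2 because it was the most abundant member, and Neurog2 and Olig2 because they had no count in any library. Their coordinates are, in the same order, chr13:56252181-56252430 (minus strand), chr2:38339031-38339280 (plus), chr2:33641099-33641348 (minus), chr1:89931177-89931426 (minus), chr3:127632886-127633135 (plus) and chr16:91225300-91225549 (plus).
Neurog1: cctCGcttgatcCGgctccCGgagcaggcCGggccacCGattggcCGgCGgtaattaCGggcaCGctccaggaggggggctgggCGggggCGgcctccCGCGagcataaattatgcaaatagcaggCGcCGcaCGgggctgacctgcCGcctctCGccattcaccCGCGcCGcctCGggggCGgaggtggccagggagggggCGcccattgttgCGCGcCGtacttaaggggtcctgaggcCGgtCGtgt
Lhx2: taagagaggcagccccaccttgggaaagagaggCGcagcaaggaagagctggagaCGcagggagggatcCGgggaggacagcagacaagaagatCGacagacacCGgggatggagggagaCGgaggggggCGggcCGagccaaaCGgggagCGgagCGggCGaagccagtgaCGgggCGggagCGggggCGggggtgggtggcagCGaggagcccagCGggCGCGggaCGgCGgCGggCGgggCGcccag
Lmx1b: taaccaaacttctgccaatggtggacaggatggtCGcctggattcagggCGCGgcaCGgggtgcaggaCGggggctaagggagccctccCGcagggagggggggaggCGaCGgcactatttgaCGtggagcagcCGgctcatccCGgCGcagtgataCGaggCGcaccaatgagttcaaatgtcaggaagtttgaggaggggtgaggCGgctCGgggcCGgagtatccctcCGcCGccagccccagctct
Gbx2: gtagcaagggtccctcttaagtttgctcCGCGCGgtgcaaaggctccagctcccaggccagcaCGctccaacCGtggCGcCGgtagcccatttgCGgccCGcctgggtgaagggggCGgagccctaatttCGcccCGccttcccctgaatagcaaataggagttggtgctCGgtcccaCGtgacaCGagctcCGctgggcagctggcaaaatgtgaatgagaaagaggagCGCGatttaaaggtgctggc
Neurog2: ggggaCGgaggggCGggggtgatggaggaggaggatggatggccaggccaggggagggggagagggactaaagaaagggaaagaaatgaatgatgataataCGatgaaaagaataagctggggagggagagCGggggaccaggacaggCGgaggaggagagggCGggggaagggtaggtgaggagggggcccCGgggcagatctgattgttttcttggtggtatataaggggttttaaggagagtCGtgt
Olig2: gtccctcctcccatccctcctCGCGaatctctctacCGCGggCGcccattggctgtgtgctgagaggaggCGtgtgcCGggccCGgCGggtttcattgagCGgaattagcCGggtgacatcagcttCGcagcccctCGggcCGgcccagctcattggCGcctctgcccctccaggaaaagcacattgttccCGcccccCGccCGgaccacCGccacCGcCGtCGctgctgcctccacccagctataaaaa
Neurog1 holds 29 CpGs in this window, Lhx2 25, Lmx1b 19 and Gbx2 18. Olig2, with no count, holds 22 and Neurog2 8, so CpG-rich starts occurred both in members with reads and in members without.

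**Figure D1:**
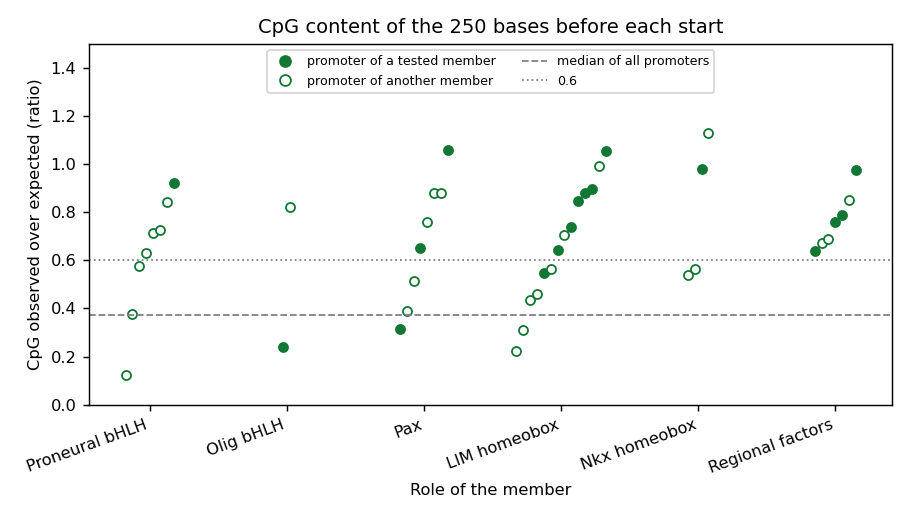
CpG observed over expected (y axis, ratio) in the 250 bases before each RefSeq start, by role of the member (x axis), with 1 point a start. Filled points are starts of tested members, the dashed line is the median of all promoters (0.37) and the dotted line is 0.6; most member starts lie above the dashed line.

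Total counts ran from 27072150 to 49382146 a library. Levels are CPM, read counts scaled to the library total after the TMM correction for differences in composition, as mean ± SD over 3 libraries. Ezh2 (ENSMUSG00000029687) stood at 91.8, 78.1 and 95.3 CPM in Ctrl replicates 1 to 3, against 40.8, 67.1 and 70.0 CPM in Ezh2 KO replicates 1 to 3. Each Ezh2 KO library was below each Ctrl library, yet the group mean was 67.1% of Ctrl. Counts over the whole gene include reads from exons that the deletion may leave in place, so they do not measure how much functional Ezh2 remained. The labelled cell type was checked on 12 germ cell and pluripotency markers: Prdm1, Prdm14, Tfap2c, Dppa3 and Nanos3 had reads in each library, and the 12 summed to 1970 to 2269 CPM in Ctrl and 1515 to 2162 CPM in Ezh2 KO. The deviation of a library from the mean level of each gene varied with transcript GC content across 15629 genes, from a Spearman rho of 0.51 in Ctrl replicate 1 to -0.49 in Ezh2 KO replicate 2 (a description; genes are not independent replicates). Tested members had a median transcript GC content of 57.5%, against 50.8% over all tested genes.

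Most members were nearly silent in both groups, and the summed level of the set stood lower in Ezh2 KO. Gbx2 and Lhx6 stood higher than the rest, at means of 5.02 and 3.60 CPM over all libraries. The 38 members summed to 23.3, 18.0 and 19.5 CPM in Ctrl replicates 1 to 3, against 15.5, 10.7 and 17.8 CPM in Ezh2 KO replicates 1 to 3. The groups did not overlap, but by a narrow margin: Ctrl replicate 2 and Ezh2 KO replicate 3 were close. Without TMM scaling they crossed, at 18.5 and 18.6 CPM of the plain library total. The means were 20.2 ± 2.73 CPM in Ctrl against 14.7 ± 3.59 CPM in Ezh2 KO (SD, n = 3), a ratio of 0.73. Without Ctrl replicate 1 and Ezh2 KO replicate 2, the ends of the GC range, the ratio was 0.89. No p is given for this sum because the members were chosen with earlier results known. In these bulk libraries, fewer cells with such transcripts and less RNA per cell cannot be told apart.

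**Figure D2:**
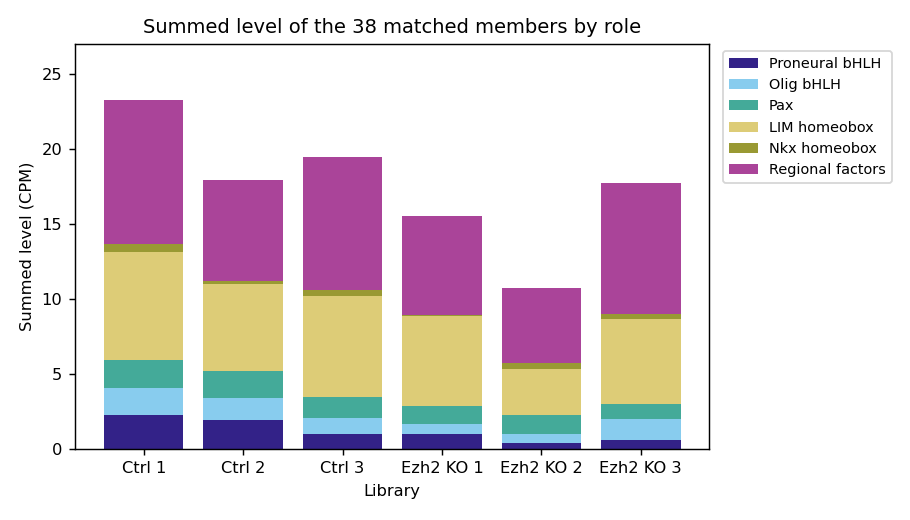
Summed level (y axis, CPM) of the 38 matched members in each of the 6 libraries (x axis), stacked by role. Regional factors and LIM homeobox genes make up most of each bar, and the Ezh2 KO bars reach 10.7 to 17.8 CPM against 18.0 to 23.3 CPM in Ctrl.

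A few members carried the sum. Gbx2 and Lhx6 together made up 38.9% to 49% of it in the Ctrl libraries and 46.0% to 64.3% in the Ezh2 KO libraries. The other 11 tested members, a split made after the values were seen, summed to 9.79, 9.54 and 9.66 CPM in Ctrl and to 4.49, 4.79 and 6.99 CPM in Ezh2 KO. Members not abundant enough to test added 2.06, 1.42 and 1.13 CPM in Ctrl against 1.04, 1.00 and 0.988 CPM in Ezh2 KO. By role, the mean sums in Ctrl and Ezh2 KO were 1.73 ± 0.657 and 0.664 ± 0.304 CPM for proneural bHLH genes, with Ctrl replicate 3 (0.991) and Ezh2 KO replicate 1 (0.989) side by side. Pax genes summed to 1.68 ± 0.262 and 1.17 ± 0.140 CPM, with no overlap. The libraries of the groups overlapped for the other roles: LIM homeobox genes summed to 6.61 ± 0.716 and 4.91 ± 1.62 CPM, regional factors to 8.43 ± 1.48 and 6.78 ± 1.87 CPM, Olig genes to 1.43 ± 0.377 and 0.860 ± 0.433 CPM, and Nkx genes to 0.342 ± 0.159 and 0.284 ± 0.180 CPM.

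More members had at least 1 read in Ctrl libraries than in Ezh2 KO libraries. The numbers were 31, 27 and 28 of 38 in Ctrl replicates 1 to 3, against 24, 22 and 24 in Ezh2 KO replicates 1 to 3, and the groups did not overlap. The share of all genes with a read in each library was not counted, so these numbers have no background to be read against. Depth differs between these libraries, so the expected number at the lowest total was also computed, and it was 28.1, 27 and 27.6 in Ctrl against 22.5, 22.0 and 22.7 in Ezh2 KO. With at least 10 counts the numbers were 17, 11 and 11 against 11, 9 and 12, which overlap. In all, 17 members had a read in each of the 6 libraries and 4 had none. Of the 34 with any read, 28 (82.4%) had a lower mean CPM in Ezh2 KO and 6 a higher one, where 47.6% of the 26974 genes with any read were lower by the same measure. Most of these rest on few reads.

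No member passed the test of single genes. The quasi-likelihood test of edgeR, adjusted over 16420 genes, called 0 of 13 tested members and 0.0% of all genes (smallest adjusted p = 0.976), and limma-voom and DESeq2 without a block called 0 members as well. At an unadjusted p under 0.05, 4 of the 13 were lower (background 1.25%) and 0 higher (background 1.55%). With the replicate number as a block 5 were lower (3.12%) and 0 higher (5.98%), with 0 called. A negative log2 fold change of Ezh2 KO over Ctrl was seen in 12 of the 13, against 48.7% of all tested genes, and the median was -0.59, against 0.01. All Ezh2 KO libraries lay below all Ctrl libraries in 6 of the 13 (background 4.03%) and above in 0 (4.07%). The same-numbered Ezh2 KO library was the lower one in all 3 pairs in 7 of the 13 (14.8%) and the higher one in all 3 for En1 alone (17.9%). The filter keeps a gene with enough reads in any 3 libraries, about 0.302 CPM, and Lhx2 and Lmx1b passed through their Ctrl libraries only. Neurog1 and Irx3 had only 1 Ezh2 KO library above that level, so they too needed their Ctrl libraries. These 4 are the members with an unadjusted p under 0.05 in edgeR without the block. En1 and Nkx6-2 went the other way, each with only 1 Ctrl library above that level, so they needed Ezh2 KO libraries. The counts over the 13 thus lean toward members that are high in 1 group. With 3 libraries against 3, an exact two-sided permutation test of 1 gene cannot go below p = 0.1.

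**Figure D3:**
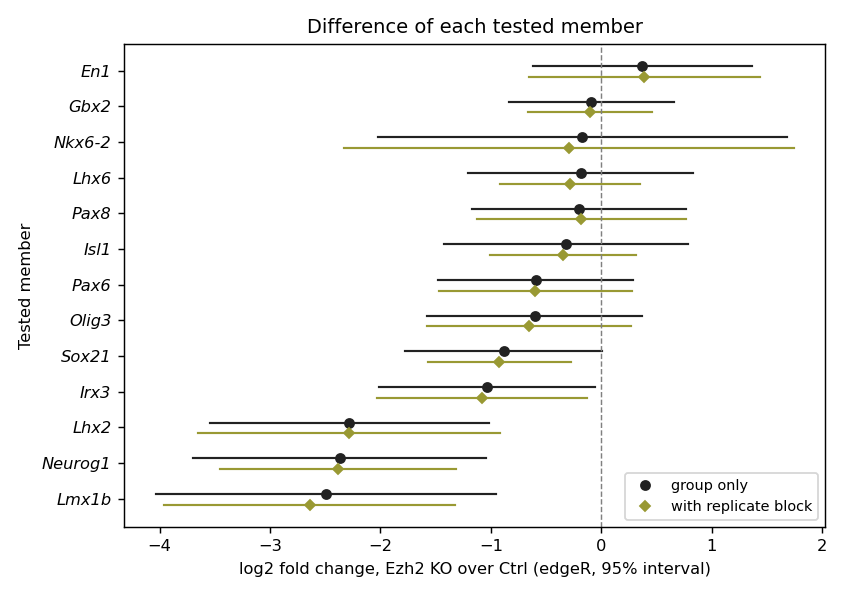
Log2 fold change of Ezh2 KO over Ctrl (x axis) for each of the 13 tested members (y axis), from edgeR with group only (circles) and with the replicate block (diamonds), with 95% intervals. Intervals of Lmx1b, Neurog1, Lhx2 and Irx3 lie below 0 in both fits, that of Sox21 with the block only, and the others span 0.

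Among the proneural bHLH genes, Neurog1 (ENSMUSG00000048904), which commits progenitors of cranial sensory and other neurons, was the one member tested. Its reads numbered 78, 44 and 25 in Ctrl replicates 1 to 3, against 17, 2 and 9 in Ezh2 KO replicates 1 to 3, or 1.61, 1.56 and 0.884 CPM against 0.455, 0.0772 and 0.222 CPM. The groups did not overlap, and Ezh2 KO replicate 2 was the lowest library. The log2 fold change was -2.37 ± 0.58 SE in edgeR (95% interval -3.70 to -1.04, unadjusted p = 0.00334, adjusted p = 0.976). With 1 library left out it ran from -3.07 (without Ezh2 KO replicate 1) to -1.99 (without Ezh2 KO replicate 2). DESeq2 with the replicate block, a fit added after the data were seen, did call it (log2 fold change -2.51, adjusted p = 0.0463), where 0.154% of the 17560 genes with an adjusted p were called lower. Among the 15 alternatives in which Neurog1 could be fitted this was the lone call, and it lay close to the threshold.

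The other proneural genes had at most 14 reads in a library and were not tested. Neurod1, a later factor of neuronal and endocrine differentiation, had 16 reads over the Ctrl libraries and 24 over the Ezh2 KO libraries. Neurod4 had 7 and 15. Atoh1, the factor of cerebellar granule cells and inner ear hair cells, had 18 and 5. Neurog3, which starts the endocrine lineage of the pancreas, had 4 reads in Ctrl and 0 in Ezh2 KO. Neurog2 and Neurod2 had 0 reads throughout, and a count of 0 allows up to 3 reads, or 0.0618 to 0.116 CPM depending on the library. The relatives thus did not all stand on the side of Neurog1: Neurod1 and Neurod4 had more reads in Ezh2 KO.

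Olig3, a factor of dorsal spinal cord and hindbrain progenitors, was the one Olig gene with enough reads to test. It stood at 1.46, 1.42 and 0.955 CPM in Ctrl against 0.642, 0.579 and 1.28 CPM in Ezh2 KO replicates 1 to 3. Ezh2 KO replicate 3 reached into the Ctrl range, and the log2 fold change of -0.60 (95% interval -1.58 to 0.37) did not pass. Olig1, an oligodendrocyte factor, had 20 reads in Ctrl, 17 of them in replicate 1, and 3 in Ezh2 KO. Olig2, the motor neuron and oligodendrocyte factor, had 0.

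In the Pax family, Pax6, a regulator of eye and forebrain, stood at 0.907, 0.639 and 0.672 CPM in Ctrl against 0.428, 0.618 and 0.445 CPM in Ezh2 KO. The groups did not overlap, although Ctrl replicate 2 and Ezh2 KO replicate 2 were near each other, and the log2 fold change was -0.59 (95% interval -1.47 to 0.29). Pax8, which acts in thyroid, kidney and the midbrain-hindbrain boundary, was at 0.623 ± 0.170 and 0.534 ± 0.171 CPM, with libraries that overlapped (log2 fold change -0.20). Without Ctrl replicate 2 the value for Pax8 was 0.03. Pax3 and Pax2, of the neural crest and of the kidney and midbrain, had 14 and 13 reads in Ctrl and 6 and 7 in Ezh2 KO. Pax5 and Pax7 had 5 and 3 reads in Ctrl and 0 in Ezh2 KO.

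LIM homeobox genes differed widely among themselves. Lmx1b, needed for limb dorsal identity and for serotonin and dopamine neurons, had 44, 15 and 22 reads in Ctrl and 2, 1 and 11 in Ezh2 KO, or 0.907, 0.532 and 0.778 CPM against 0.0535, 0.0386 and 0.272 CPM. Its groups did not overlap, with Ezh2 KO replicate 3 the highest of its group. The log2 fold change was -2.49 ± 0.67 SE (95% interval -4.03 to -0.95, edgeR unadjusted p = 0.00570, adjusted p = 0.976). With 1 library left out it ran from -3.88 (without Ezh2 KO replicate 3) to -2.12 (without Ezh2 KO replicate 1). The 14 reads of Ezh2 KO against 81 of Ctrl gave a pooled level of 17.5% of Ctrl, with an exact 95% counting interval of 9.15% to 31.0%, which covers counting error only.

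Lhx2, a selector of eye field, forebrain and hair follicle, had 15, 11 and 10 reads in Ctrl and 2, 3 and 2 in Ezh2 KO. Each Ezh2 KO library was thus below each Ctrl library, on very few reads: 7 against 36, or 19.7% of Ctrl with a counting interval of 7.39% to 44.8%. Its log2 fold change was -2.28 ± 0.55 SE (edgeR unadjusted p = 0.00301, adjusted p = 0.976). Under the offset for GC content, added after the data were seen, the log2 fold changes were -2.24 for Neurog1, -2.28 for Lmx1b and -2.06 for Lhx2, close to the values without it. Irx3 moved from -1.03 to -0.76 (edgeR unadjusted p = 0.136) and Sox21 from -0.88 to -0.71, so 3 members in place of 4 had an unadjusted p under 0.05.

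Lhx6, a factor of cortical interneurons, was the most abundant LIM gene and showed no such difference. It stood at 4.97, 3.05 and 3.50 CPM in Ctrl against 5.03, 1.54 and 3.53 CPM in Ezh2 KO replicates 1 to 3. Replicates 1 and 3 were nearly level between the groups, and Ezh2 KO replicate 2 was low. The log2 fold change was -0.19 (95% interval -1.20 to 0.83), 0.16 without Ezh2 KO replicate 2 and 0.05 without Ctrl replicate 1. Isl1, of motor neurons and cardiac progenitors, was at 0.804, 1.63 and 1.88 CPM in Ctrl against 0.615, 1.2 and 1.61 CPM in Ezh2 KO. Each Ezh2 KO library was a little below its same-numbered Ctrl library although the groups overlapped, and the log2 fold change was -0.32 (95% interval -1.43 to 0.79). Lhx1, Lhx4 and Lhx5 had 8, 8 and 4 reads over the Ctrl libraries and 3, 6 and 2 over the Ezh2 KO libraries. Lhx9, Lmx1a and Lhx3 had more reads in Ezh2 KO (5, 4 and 2) than in Ctrl (3, 1 and 1).

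**Figure D4:**
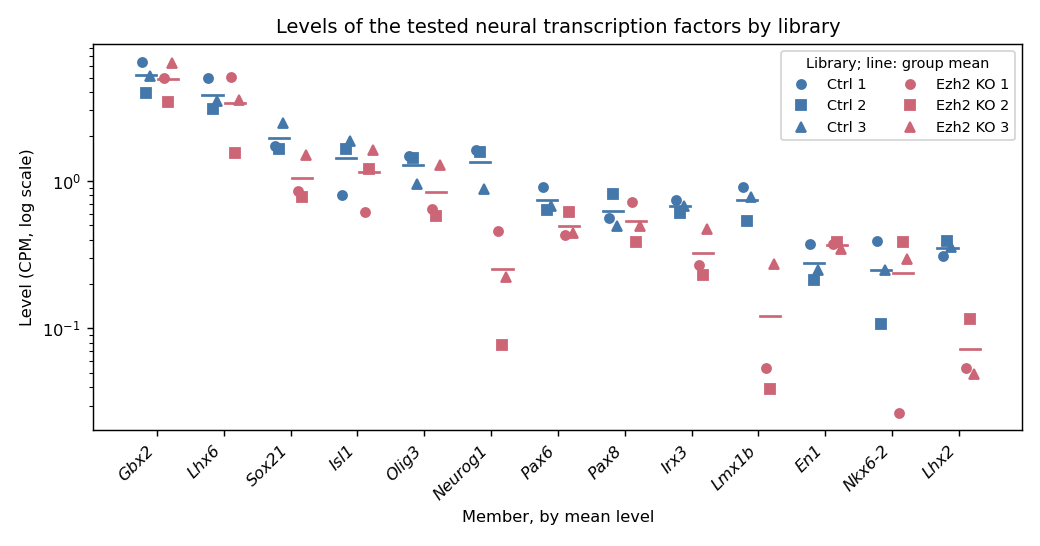
Level (y axis, CPM, log scale) of the 13 tested members in each library, ordered by mean level (x axis); circles, squares and triangles are replicates 1, 2 and 3, and lines are group means. The Ezh2 KO points of Neurog1, Lmx1b and Lhx2 all lie below their Ctrl points, while those of Gbx2, Lhx6, Isl1 and Pax8 mix with them.

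Nkx genes were close to the floor. Nkx6-2, of ventral spinal cord and oligodendrocytes, had 19, 3 and 7 reads in Ctrl and 1, 10 and 12 in Ezh2 KO, with full overlap. Its log2 fold change was -0.17 (95% interval -2.02 to 1.68), and without Ezh2 KO replicate 1 it was 0.38. Nkx2-2, Nkx2-1 and Nkx6-1, which pattern the ventral neural tube and forebrain, had 6, 3 and 1 reads in Ctrl and 3, 2 and 0 in Ezh2 KO.

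Regional factors differed among themselves. Irx3, a proneural regulator of the neural plate and spinal cord, stood at 0.742, 0.603 and 0.672 CPM in Ctrl against 0.267, 0.232 and 0.469 CPM in Ezh2 KO, with no overlap. Its log2 fold change was -1.03 ± 0.43 SE (edgeR unadjusted p = 0.0411, adjusted p = 0.976). Sox21, an HMG-box factor that promotes neuronal differentiation, was at 1.73, 1.63 and 2.48 CPM in Ctrl against 0.856, 0.772 and 1.51 CPM in Ezh2 KO. It too did not overlap, with Ezh2 KO replicate 3 the closest to Ctrl (log2 fold change -0.88 ± 0.39 SE, edgeR unadjusted p = 0.0519, adjusted p = 0.976).

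Gbx2, which sets the midbrain-hindbrain boundary and is also expressed in pluripotent cells, was the member of highest level at 6.43, 3.94 and 5.17 CPM in Ctrl against 4.95, 3.40 and 6.25 CPM in Ezh2 KO. The libraries of the groups were mixed, and the log2 fold change of -0.09 had a 95% interval of -0.84 to 0.66. It turned to 0.12 without Ezh2 KO replicate 2 and to 0.10 without Ctrl replicate 1. En1, a midbrain and hindbrain factor, was the tested member with the higher mean in Ezh2 KO, at 0.277 ± 0.0831 CPM in Ctrl against 0.369 ± 0.0207 CPM in Ezh2 KO, with overlap. The log2 fold change of En1 was 0.37 (95% interval -0.62 to 1.36). Its paralog En2 had 33 reads in Ctrl and 18 in Ezh2 KO. Six3, Dbx1 and Emx2, of forebrain, spinal interneurons and cortex, had 2, 2 and 0 reads in Ctrl and 0 in Ezh2 KO.

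Among the 25 members that were not tested, 6 had reads in Ctrl alone (Neurog3, Pax5, Pax7, Six3, Dbx1 and Nkx6-1), 0 in Ezh2 KO alone and 15 in both. Those 6 had 1 to 5 reads each, and the same split over all untested genes was not counted, so it has no background. Their reads summed to 172 in Ctrl and 105 in Ezh2 KO, and none exceeded 17 reads or 0.350 CPM in a library. At this depth a difference between the groups was not detectable for most of them one by one.

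Levels per length, in CPM per kb of merged exons, allow members to be compared with each other. In Ctrl the order was Gbx2 (2.38), Neurog1 (0.801), Lhx6 (0.799), Olig3 (0.617), Sox21 (0.512), Isl1 (0.363), Irx3 (0.243), Lmx1b (0.151), Nkx6-2 (0.130), En1 (0.106), Pax8 (0.103), Lhx2 (0.0799) and Pax6 (0.0632). Neurog1 and Lhx6 differed by far less than their spread. In Ezh2 KO Neurog1 stood at 0.149, near En1 (0.141) and below Sox21 (0.275), and Lmx1b (0.0249) and Lhx2 (0.0166) were the lowest tested members, while Gbx2 (2.23) and Lhx6 (0.701) stayed at the top.

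Other genes of the neural program were read from lists that hold none of the members, and 0 of them passed the edgeR test. Of 37 other neural transcription factors matched, 8 were tested, with a median log2 fold change of -0.39. All Ezh2 KO libraries lay below all Ctrl libraries in 3 of the 8 (background 4.03%) and above in 0 (4.07%). Zic5, a zinc finger factor of the neural plate, was at 25.2, 27.7 and 26.4 CPM in Ctrl against 20.1, 17.8 and 18.0 CPM in Ezh2 KO, 2 narrow groups apart from each other (log2 fold change -0.50 ± 0.19 SE, edgeR unadjusted p = 0.0272, adjusted p = 0.976). Pou4f1, a sensory neuron factor, was at 2.21 ± 0.405 and 1.2 ± 0.344 CPM (-0.87). Vax2, of the ventral retina, was at 14.1 ± 12.1 and 10.0 ± 6.32 CPM, with overlap.

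Structural genes of neural progenitors and neurons were read next. Of 20 matched, 13 were tested, with a median log2 fold change of -0.26. It was negative in 9 and positive in 4, where 48.7% of all tested genes were negative. In all 3 same-numbered pairs 5 of the 13 were lower (background 14.8%) and 1 was higher (17.9%). Over all 20, their summed level was 147.0 ± 42.4 CPM in Ctrl against 137 ± 30.4 CPM in Ezh2 KO, with overlap. Stmn2 and Mapt, microtubule proteins of neurons, stood at 53.7 ± 23.0 and 28.8 ± 13.1 CPM in Ctrl against 53.4 ± 10.5 and 31.9 ± 9.40 CPM in Ezh2 KO, and the adhesion gene Ncam1 at 25.9 ± 3.44 and 20.0 ± 4.88 CPM. N-cadherin (Cdh2) was at 1.11, 3.83 and 1.73 CPM in Ctrl against 0.776, 0.772 and 0.642 CPM in Ezh2 KO, with no overlap but with Ctrl replicate 2 far above its group (log2 fold change -1.60 ± 0.50 SE, edgeR unadjusted p = 0.0124, adjusted p = 0.976). The neurofilament gene Nefl was at 4.72 ± 0.838 and 2.80 ± 0.835 CPM.

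Partners and antagonists of bHLH factors ranged widely in level. Id2, which binds E proteins and so blocks bHLH factors, was at 21.3, 30.8 and 22.4 CPM in Ctrl against 48.0, 58.0 and 42.2 CPM in Ezh2 KO, each Ezh2 KO library above each Ctrl library. Its log2 fold change was 0.99 ± 0.22 SE (edgeR unadjusted p = 0.00209, adjusted p = 0.976), with an adjusted p = 0.303 under the replicate block. Its paralog Id3 was at 189.7 ± 21.6 and 172 ± 42.7 CPM, with overlap. Rest, the repressor of neuronal genes outside the nervous system, was at 357 ± 60.0 and 309 ± 47.3 CPM, and the E protein gene Tcf3 at 77.4 ± 47.4 and 45.5 ± 17.8 CPM, with Ctrl replicate 1 at 132 CPM. Over the 11 genes of this list, all tested, the median was -0.01. Cofactors of LIM factors (5 of 9 tested) had a median of -0.20, with Ssbp3 at 27.9 ± 4.90 and 35.2 ± 8.44 CPM, Ssbp4 at 21.5 ± 7.61 and 16.9 ± 11.3 CPM and Ldb1, the bridging factor of LIM complexes, at 18.8 ± 2.41 and 14.8 ± 5.65 CPM, all with overlap.

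**Figure D5:**
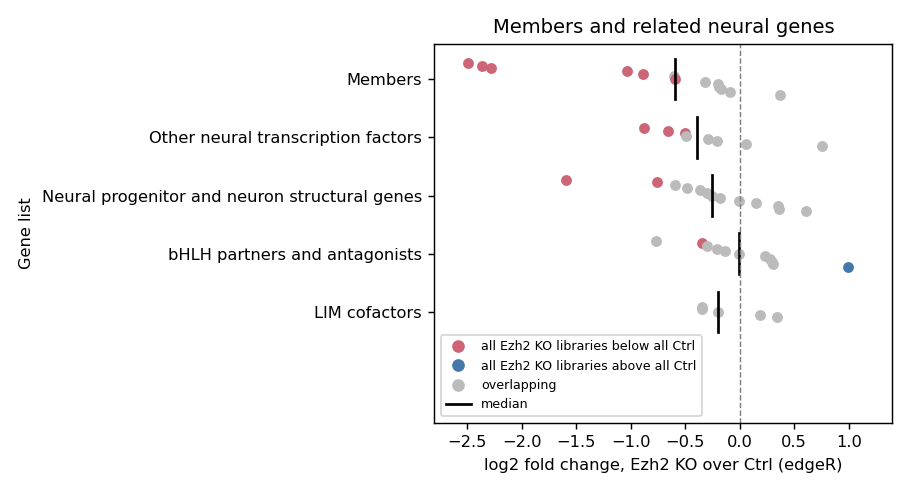
Log2 fold change of Ezh2 KO over Ctrl (x axis) for each tested gene of the members and of 4 related lists (y axis), with the list median as a black line. Red and blue points are genes whose Ezh2 KO libraries all lie below or above the Ctrl libraries; 6 of the 13 members are red, and Id2 is the lone blue point.

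Marker lists of cell types beyond the germ line were read in the same libraries. Summed levels in Ctrl and Ezh2 KO were 7.94 ± 0.871 and 6.87 ± 0.978 CPM for 8 neural crest markers, 9.11 ± 3.25 and 9.58 ± 2.72 CPM for 10 mesoderm markers, 9.36 ± 1.68 and 7.66 ± 2.63 CPM for 10 endoderm markers, 154 ± 88.7 and 163 ± 41.5 CPM for 8 trophoblast markers, 160.4 ± 38.8 and 149.9 ± 44.2 CPM for 8 blood and endothelium markers, and 7.50 ± 2.31 and 4.57 ± 1.90 CPM for 8 fibroblast markers. The fibroblast sum ran from 5.13 to 9.75 CPM in Ctrl and from 2.66 to 6.47 CPM in Ezh2 KO, lowest in Ezh2 KO replicate 2. That library was also the lowest for the members and for the germ cell, mesoderm and endoderm markers. It was not the lowest for the neural crest, trophoblast or blood and endothelium markers. Most of the trophoblast sum was Krt8, most of the endoderm sum was Hhex, and most of the blood and endothelium sum was Pecam1, which germ cells express too. The median log2 fold change was -0.88 for 5 tested endoderm markers, -0.56 for 4 fibroblast markers and -0.31 for 5 neural crest markers. It was -0.07 for 6 mesoderm, 0.10 for 8 trophoblast and 0.81 for 5 blood and endothelium markers. The members' median was -0.59, so the endoderm median was lower and the fibroblast median close to it. For the 12 germ cell and pluripotency markers the median was -0.29, with 9 of 12 negative, against 48.7% of all tested genes. Of these 12, 6 were lower in all 3 same-numbered pairs (background 14.8%) and 0 higher in all 3 (17.9%). Markers within a list differed: Foxd3 (neural crest) was at 2.64 and 1.92 CPM, Hand1 (mesoderm) at 5.74 and 6.60 CPM, Hhex (endoderm) at 6.34 and 5.68 CPM and Gata1 (blood) at 4.02 and 3.48 CPM, as means in Ctrl and Ezh2 KO. All Ezh2 KO libraries lay below all Ctrl libraries for Foxd3, Sox17 (endoderm), Cdx2 (trophoblast) and Col1a2 (fibroblast) (background 4.03%). They lay above all Ctrl libraries for Snai2 (neural crest) and for Eomes and Elf5 (trophoblast) (background 4.07%). Others were at or near 0: Sox10 (neural crest) had 0 to 4 reads in a library, Foxf1 (mesoderm) 0 in all, Foxa2 (endoderm) 2 in Ctrl replicate 1 alone and Ptprc (blood) 1 in Ezh2 KO replicate 3 alone. The part of other cells in the members' sum was not tested.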

How the data were processed

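RNA-seq was made from 3 Ctrl and 3 Ezh2 KO libraries. The authors deposited raw counts for each Ensembl gene; CASAVA 1.8.4, Trimmomatic 0.33, TopHat2 2.0.11 and featureCounts, with mm9 and NCBIM37, are named in the submitters' processing notes, and the sources used here give no settings or strand, so overlapping or antisense reads cannot be told apart. Members and lists were chosen with earlier results of these data known. IDs were matched to GENCODE M21 symbols and exon lengths; 32919 of 37991 matched. Genes kept by filterByExpr (minimum count 10; 16420 kept, 21571 not tested) were fitted with the robust quasi-likelihood test of edgeR 4.0.16 in R 4.3.3 after TMM, group as the only term, two-sided, Benjamini-Hochberg over all tested genes, threshold 0.05. Alternatives were DESeq2 1.42.0 and its size factors, limma 3.58.1 voom, other filters, a replicate block and each library left out. Chosen after seeing the data were a GC offset (loess span 0.5) with and without the block, the block in DESeq2, and removal of Ctrl replicate 1 with Ezh2 KO replicate 2. Deviations of same-numbered libraries from their group means correlated (0.58, 0.37 and 0.19 for numbers 1, 2 and 3), so the numbers were taken as pairs, although Ctrl replicate 3 correlated more with Ezh2 KO replicate 2 (0.30) than with its own number. Named genes were all members, Ezh2 and, in each related list, the 3 most abundant tested genes and the 2 of smallest p. Of the marker lists, some defining markers and the tested markers whose groups did not overlap were named. Untested members are given by their reads. One gene that this rule names is not reported here. Intervals cover counting error only where so named.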

Additional observations from a re-analysis of the deposited data

How the results depend on the processing

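The number of members called was 0 in each alternative except DESeq2 with the replicate block, which called 1 (Neurog1, log2 fold change -2.51, adjusted p = 0.0463; its adjusted p ran from 0.0463 to 1.00 over the alternatives). Over all genes edgeR called 0, DESeq2 5 and DESeq2 with the replicate block 50; edgeR with the replicate block called 0 genes and 0 members, with a median member log2 fold change of -0.60, and changed no other call. The threshold of 0.10 gave 0 as well. The median member log2 fold change was -0.31 under the stricter filter, which keeps 5 of the 13 members, and -0.69 to -0.50 with 1 library left out. The difference in mean number of members detected, Ezh2 KO minus Ctrl, was -5.33 at 1 count and -2.33 at 10 counts, with no background over all genes counted. The ratio of summed levels ran from 0.65 to 0.82 with 1 library left out. With 1 library left out the log2 fold changes ran from -0.31 to 0.12 for Gbx2, from -0.59 to 0.16 for Lhx6, from -0.48 to 0.026 for Pax8 and from -0.62 to 0.38 for Nkx6-2. Without Ctrl replicate 1 and Ezh2 KO replicate 2 together they were 0.31 for Gbx2 and 0.39 for Lhx6, and under the GC offset 0.38 for Nkx6-2, or 0.013 with the replicate block. The cause of these reversals was not tested. The sign of the other 9 tested members was kept in each alternative that could fit them. Few reads limit most members.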
